A study of Mus musculus with 12 samples.

Results

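The list of m6A peaks called in the hippocampus of Tyrobp-/- mice is described here, and all of its rows were taken. It held 34935 peaks, of the 68557 peaks in the lists of both genotypes, and they carried 16146 gene names. The mice had a C57BL/6 background, were male and were 6 months old, and a TALEN had removed a short stretch of exon 2 of Tyrobp in the knockout line. TYROBP is the adaptor through which TREM2 and related receptors of microglia signal. Each of the 3 samples of a genotype pooled the hippocampi of 3 mice, and each gave an IP library (fragments pulled down with an antibody against m6A) and an input library (the same RNA without the pull-down). Wild-type (WT) mice carried no deletion and were the comparison. The replicates of a genotype were called together, so a peak has a single value and no error between mice; fewer cells of a type and less RNA per cell cannot be told apart in this bulk tissue.

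m6A is a methyl mark on adenosine inside RNA. A complex built on METTL3 and METTL14, with WTAP and other adaptors, writes it, FTO and ALKBH5 can remove it, and proteins of the YTH family bind it and affect how long the RNA lasts and how well it is translated. In brain messenger RNA the mark is known to gather around stop codons and in 3′ UTRs, and it has been tied to synaptic function, learning and memory. In MeRIP-seq a peak is an exonic stretch where the IP holds more reads than the input, and fold enrichment is the ratio of both as the peak caller gives it. It measures the share of marked fragments roughly and is not a count of marked bases.

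The hippocampus label was checked against marker genes by their peaks, since levels by gene are not in the files used here. As background, 58.2% of 21900 RefSeq protein-coding genes carried a Tyrobp-/- peak by name. Of 16 hippocampal field markers, 15 carried a Tyrobp-/- peak, among them Prox1 of dentate granule cells with 5 peaks, Wfs1 and Fibcd1 of CA1, and Zbtb20. Spink8, also a CA1 marker, carried none. Of 8 hypothalamic markers, 3 carried a peak, and Pmch, Hcrt, Oxt, Avp and Trh carried none by name, though Oxt and Trh did in WT mice. Agrp, a neuropeptide of the hypothalamus, had 4 peaks up to 10.5, of which 3 had a log10 FDR below -5 and 2 overlapped its RefSeq span. Pomc and Gal had 1 each, at 1.74 and 1.56. Of 8 choroid plexus and ependyma markers, 5 (62.5%) carried a peak: Kl with 3, Foxj1 with 3 up to 28.7, Ccdc153 with 3, and Clic6 and Otx2 with 1 each. Folr1, Kcnj13 and Ttr, the defining transcript of choroid plexus, carried none by name. Under other names, a peak of 15.2 lay in the span of Pmch (Parpbp), one of 5.24 in that of Ttr (Gm16090) and 2 up to 20.6 in that of Kcnj13 (Gigyf2). A missing peak does not show a missing transcript, because an unmethylated or weakly expressed RNA gives none. The paper names Pmch and Hcrt among the top upregulated genes of Tyrobp-/- mice in its RNA sequencing. Their missing peaks thus do not show that hypothalamic RNA was absent.

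The Tyrobp-/- IP libraries held between 62814416 and 68297502 valid reads and the input libraries between 67033990 and 69188154. GC content was 49.33%, 48.46% and 49.03% in the Tyrobp-/- IP libraries and 48.00%, 47.94% and 47.59% in their inputs. The groups did not overlap: the IP libraries lay 1.10 percentage points above the inputs on average (48.94% ± 0.44 against 47.84% ± 0.22, SD, n = 3 each; exact permutation test, two-sided, p = 0.10, the smallest that 3 against 3 allows). In WT mice the IP libraries lay 1.91 percentage points above their inputs, also without overlap. How far base composition moves a fold enrichment was not tested.

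Sequences can be shown for start windows and miRNA hairpins, for which the reference tables hold letters. Of 32851 RefSeq start windows (GRCm38.p6, the first 50 transcribed bases), 1684 windows of 1571 genes lay wholly inside a Tyrobp-/- peak of the same gene and strand. The core of the m6A consensus, searched as GGACT, occurred in 5.82% of these covered windows. It occurred in 6.06% of them on the other strand, and in 5.74% of the 30957 windows outside every Tyrobp-/- peak. All windows together held it in 5.76%. Covered start windows thus held GGACT about as often as the rest, and 5 related words were searched in the same way. GGACA stood in 4.93% of covered windows and 5.43% of uncovered ones, and GGACC in 6.12% and 5.08%. The word AGACT stood in 4.45% and 5.19%, GAACT in 2.79% and 4.50%, and AAACT in 2.32% and 3.68%. On the other strand of the covered windows these 5 words stood in 3.03% to 5.76%. No match says only that these letters are not in the window.

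The stretches below come from covered windows with GGACT, among peaks with a log10 FDR below -5. Windows of a single chromosome were left out before the ranking, so stronger ones may exist there. Of the rest, the stretches are from the 5 windows with the strongest peaks and from the 3 of listed genes. Capitals mark GGACT, the letters are RefSeq sequence of GRCm38.p6, and each stretch is cut to the bases nearest the word.
Senp3, chr11:69682067-69682084, minus strand: gGGACTgccacacgcggc
Mturn, chr6:54681624-54681651, plus strand: ggggcggccccGGACTggcggggccccg
Fbxo48, chr11:16951381-16951409, plus strand: ttcaaatccggaGGACTgaaatcgcggga
Gm19935, chr8:90817344-90817371, minus strand: ctctaaggcccaGGACTggatgtgccct
Smim26, chr2:144594065-144594082, plus strand: aGGACTtcctcctctcct
Bdnf, chr2:109692450-109692478, plus strand: tcaccgaggagaGGACTgctctcgctgcc
Cldn5, chr16:18776869-18776896, plus strand: tcttctgctccaGGACTggaggctccag
Jun, chr4:95052186-95052214, minus strand: caggctggataaGGACTcagagttgcact

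All 8 peaks over these stretches were annotated to 5′ UTRs. Senp3, a SUMO-specific protease, had a fold enrichment of 85.3 there in Tyrobp-/- and 97.3 in WT mice. Mturn had 49.6 and no WT peak that covered the window. Fbxo48 had 25.7 against 7.81, Gm19935 19.1 against 15.8 and Smim26 17.3 against 12.7. The 7.81 of Fbxo48 was a repeated value of the WT list, on 963 peaks, of the kind described below. WT peaks on such values below 10 had a median log10 p of -1.96. Bdnf, which encodes a growth factor needed for synaptic plasticity, had 15.2 at this start site, one of several of the gene. No WT peak covered the whole window, though a WT peak of 12.5 overlapped the Tyrobp-/- peak. Cldn5, the main tight junction protein of brain endothelium, had 12.1. Jun, an immediate early transcription factor, had 12.1 at its start in Tyrobp-/- mice, where a WT peak of 34.9 covered the window. The WT value matched to the separate Tyrobp-/- peak in the Jun 3′ UTR, at 43.2, was also 34.9. The values at the start thus need not compare the same stretch of RNA.

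Of 1005 miRNA hairpins in the RefSeq table, 21 lay wholly inside a Tyrobp-/- peak, 19 of them on the strand of the gene the peak was named for. For 14 of the 21 a peak was named for the miRNA gene itself, so the strand had to match. Mir1895 and Gm51268 lay on the other strand. The mature sequences below belong to 4 of these that lie in host transcripts or are well studied, with the seed (bases 2 to 8) in capitals, and no seed is shared between any pair of them.
mmu-miR-9-5p: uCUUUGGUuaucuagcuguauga
mmu-miR-9-3p: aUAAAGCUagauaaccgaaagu
mmu-miR-22-3p: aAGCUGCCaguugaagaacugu
mmu-miR-671-5p: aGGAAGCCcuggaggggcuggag
mmu-miR-1306-5p: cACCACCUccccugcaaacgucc

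The hairpin Mir9-2 (chr13:83738814-83738885, plus strand) lay in a last-exon peak of C130071C03Rik, the long noncoding host transcript of this neuronal miRNA, with a fold enrichment of 19.4 in Tyrobp-/- and 12.5 in WT mice. Mir671 (chr5:24592114-24592211) lay in 3 overlapping peaks, of which the strongest reached 15.9 in Tyrobp-/- and 16.5 in WT mice. Mir1306 lay in a 5′ UTR peak of Dgcr8, which encodes the RNA-binding partner of DROSHA in hairpin cutting, at 6.66 against 6.13. Mir22 lay in 2 peaks at 2.49 and 2.34, against 2.69 in WT mice. The fragments under these peaks came from poly(A) RNA, so they report the host or precursor transcript and not the mature miRNA.

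Peaks were spread over many genes and were few in most of them. The 16146 gene names held 2.16 peaks on average and 2 at the median, and 7046 names (43.6%, exact 95% binomial interval 42.9% to 44.4%) held a single peak. At least 3 peaks stood on 4664 names, at least 5 on 1193, at least 10 on 61 and at least 20 on 6. The names with at least 3 peaks held 54.4% of all peaks. The intervals here and below are Clopper-Pearson intervals and cover counting error only.

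**Figure D1:**
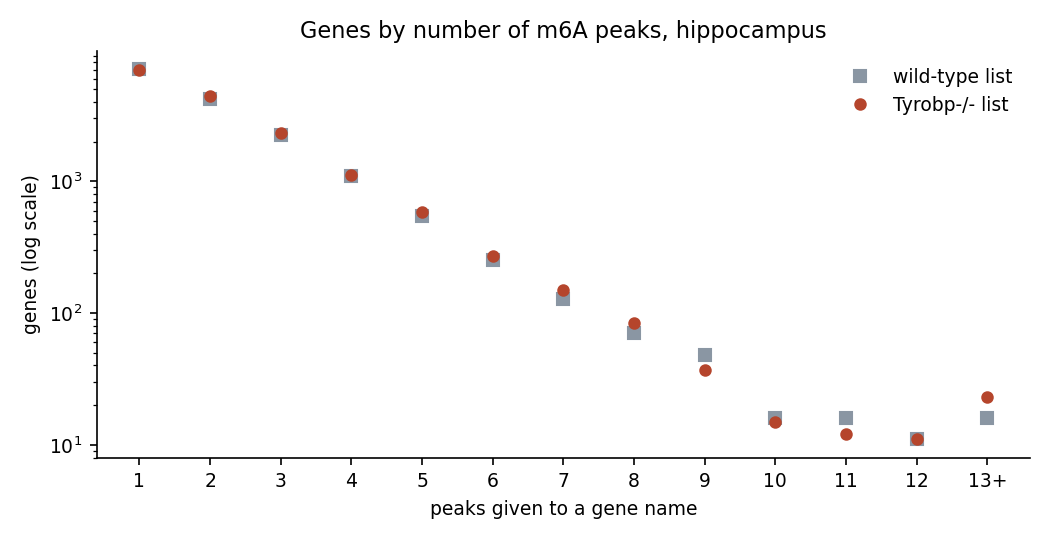
Number of gene names (y axis, log scale) by the number of m6A peaks given to a name (x axis, 13+ meaning 13 or more), with circles for the Tyrobp-/- list and squares for the wild-type list. Both lists fall from 7046 and 7093 names with a single peak to 11 names with 12 peaks, and the Tyrobp-/- list holds 23 names with 13 or more against 16.

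Among names listed in either genotype, at least 3 peaks stood on 26.3% in the Tyrobp-/- list and 25.0% in the WT list, a difference of 1.30 percentage points. Of the names that differed, 1421 reached 3 peaks in the Tyrobp-/- list alone and 1191 in the WT list alone. With only peaks whose log10 FDR was below -5 in both lists, the difference was 0.42 percentage points. With 1 pooled list a genotype, this and the other differences between the lists have no error between mice and are given with no test. Of the 14183 names with peaks in both lists, 7516 (53.0%) had equal numbers of peaks, 3619 had more in Tyrobp-/- mice and 3048 had more in WT mice.

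The names with the most peaks did not all stand for a single gene. Fgfr2, a receptor for fibroblast growth factors, led with 54 peaks (51 in WT mice), of which 3 overlapped the RefSeq span of Fgfr2. The 54 peaks stretched over chr7:130162451-133123683 and overlapped 24 protein-coding RefSeq genes, among them Chst15 with 7 peaks and Plekha1, Ikzf5 and Ctbp2 with 4 each. Gm20388, a predicted gene that is not in RefSeq, carried 30 peaks (32 in WT mice) over chr8:120103547-123768377. The counts of both names thus cover stretches that hold many other genes.

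Protocadherins, the clustered cell adhesion proteins of neurons whose genes share 3′ exons, took much of the top of the ranking. Pcdhgc4 had 26 peaks (25 in WT mice), Pcdha11 20 (29), Pcdha3 18 (19) and Pcdhgb2 16 (16). Gm26672 with 18 peaks and Gm37013 with 18 lie in the same cluster, and had 12 and 10 in WT mice. Since the exons are shared, the division of these peaks among the cluster's names is uncertain. The median fold enrichment of the Pcdhgc4 peaks was 1.59 and that of the Pcdha11 peaks 7.54.

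Ahnak and Kcnq1 completed the first 10. Ahnak, a very large scaffold protein, had 23 peaks (21 in WT mice), all inside its RefSeq span, and their fold enrichments ran from 1.59 to 6.99 with a median of 2.98. Kcnq1 names 20 peaks (22 in WT mice), with fold enrichments from 1.96 to 31.4. Of these, 19 overlapped the RefSeq span of Kcnq1ot1 (chr7:143213111-143296547), the long noncoding RNA that runs antisense through Kcnq1 and silences neighbouring imprinted genes from the paternal copy, and all 20 were annotated as the only exon of a transcript. Kcnq1ot1 itself was not a name in the list, and reads of opposite strands cannot be told apart here.

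Peaks were therefore also given to the protein-coding RefSeq gene around the middle of their widest exon block, a choice made after the data were seen. A single such gene was found for 28116 peaks (80.5%), none for 5045 and several for 1774. Where it was single, it matched the listed name for 91.1% of peaks. On that count Ahnak led with 23 peaks, followed by Kcnq1 with 20, Fat4 with 19, and Dst, Pclo and Zfhx2 with 15 each. Kmt2d and Zfhx3, with 14 each, and Crybg3, with 12, were among those that followed. Kcnq1ot1 is noncoding and could not be chosen in this count, though 19 of the 20 Kcnq1 peaks overlapped its span. Fat4 is a giant cadherin, Dst a cytoskeletal linker, Pclo a scaffold of the presynaptic active zone, and Kmt2d a histone H3 methyltransferase. In Pclo, 14 of the 15 peaks were in internal exons, all 15 passed a log10 FDR of -5, and all 15 overlapped a WT peak.

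3′ UTRs held the largest share of the 6 annotation classes, 17229 peaks (49.3%, interval 48.8% to 49.8%) of 11083 names, and 5′ UTRs held 6058 peaks (17.3%) of 4632 names. Internal exons held 3728 peaks (10.7%), last exons outside a UTR 3856 (11.04%), first exons 1787 (5.12%) and transcripts with a sole exon 2277 (6.52%). Both a 3′ UTR and a 5′ UTR peak stood on 3086 names (19.1%), a 3′ UTR peak without a 5′ UTR peak on 7997 (49.5%), and the reverse on 1546 (9.57%). In the 3086 names with both, the 3′ UTR peak was the stronger in 52.8%, and the fold enrichments of the pair were almost unrelated across genes (rank correlation 0.10, n = 3086, genes not being independent replicates).

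Fold enrichment ran from 1.08 to 1010 with a median of 5.72 and quartiles of 3.10 and 9.53. Internal exons had the lowest median, 4.41, and 13.2% of their peaks reached a fold enrichment of 10. 3′ UTR peaks had a median of 5.28 with 22.4% at 10 or above, and 5′ UTR peaks 6.06 with 23.9%. First, last and only exons shared a median of 6.67, the value of a repeated step described below. Among peaks with a log10 FDR below -5, the medians were 5.56 in 3′ UTRs, 6.15 in 5′ UTRs, 4.26 in internal exons, 6.13 in first exons, 6.48 in last exons and 8.57 in sole exons. Over all peaks, 7697 (22.0%) reached 10 in Tyrobp-/- mice and 7340 (21.8%) in WT mice, a difference of 0.20 percentage points.

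**Figure D2:**
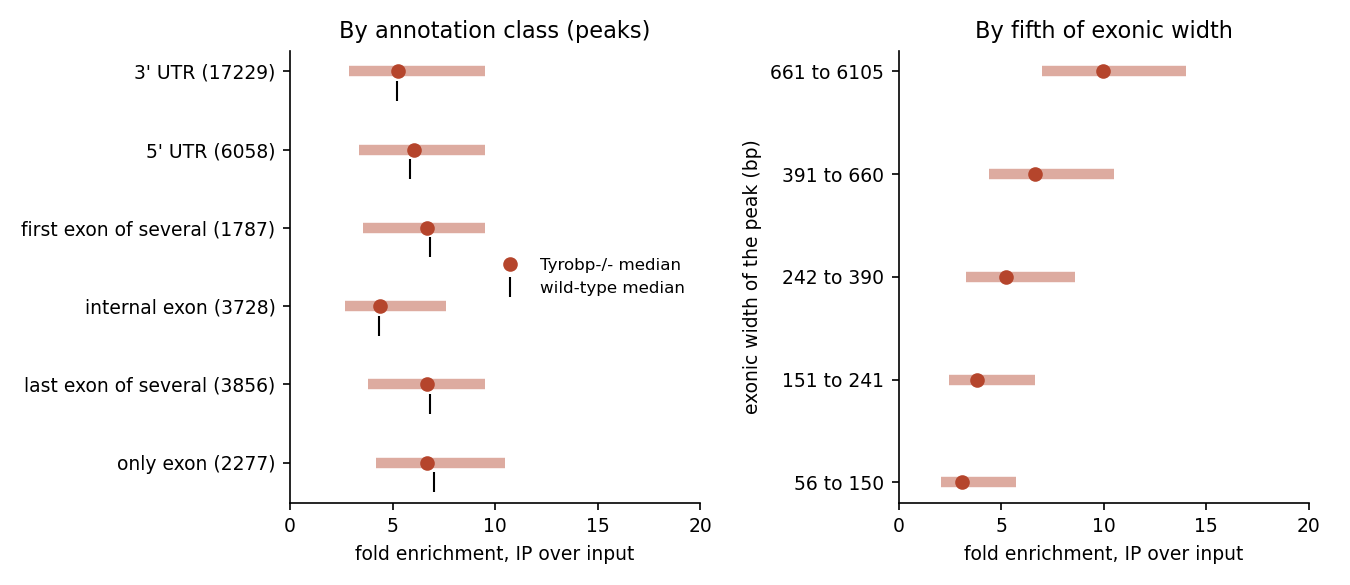
Fold enrichment of IP over input (x axes) of Tyrobp-/- peaks by annotation class (left, number of peaks in brackets) and by 5 groups of exonic width in bp (right). Circles are medians, bars run from the lower to the upper quartile over peaks and ticks are wild-type medians; medians run from 4.41 in internal exons to 6.67 in first, last and only exons, and from 3.10 in the narrowest to 9.99 in the widest group.

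Wider peaks were the stronger ones. Exonic width, the sum of a peak's exon blocks, had a median of 301 bp, with quartiles of 179 and 570 bp and a range from 56 to 6105 bp. In the narrowest of 5 groups (56 to 150 bp) the median fold enrichment was 3.10, and in the widest (661 to 6105 bp) it was 9.99. 3′ UTRs made up 39.4% of the narrowest and 62.7% of the widest group. A WT peak overlapped 45.9% of the narrowest and 99.3% of the widest. Across the 34935 peaks the rank correlation of fold enrichment and exonic width was 0.52, a description over values from the same libraries.

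Exon junctions lay inside 9263 peaks (26.5%), which joined 2 or more exon blocks. Such peaks had a median exonic width of 481 bp and a median fold enrichment of 6.70, against 269 bp and 5.2 in peaks of 1 block. They made up 44.6% of 5′ UTR peaks, 40.4% of internal exon peaks and 23.9% of 3′ UTR peaks. In the WT list 9729 of 33622 peaks (28.9%) joined blocks, a difference of -2.42 percentage points for Tyrobp-/- minus WT. The Tyrobp-/- peaks were also the narrower, with a median exonic width of 301 bp against 326 bp in WT mice.

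The peaks with the most blocks were those of Bod1l with 12, Eif3a with 11, and Gm23027 with 9. Bod1l, a protein that protects stalled replication forks, had a fold enrichment of 1.74 over chr5:41794323-41808727 (WT 1.46). Eif3a, a subunit of a translation initiation factor, had 4.19 over chr19:60761864-60772760 (WT 3.25). Cep164, a centriole protein, and Phactr2 had 8 blocks each, with 16.2 and 9.06. Gm23027 had 34.3, over a stretch that RefSeq gives to Iqank1.

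The widest peak covered 6105 bp and was annotated to the 3′ UTR of Apc2, a neuronal relative of the APC tumour suppressor (chr10:80311082-80317186), at a fold enrichment of 13 (WT 16.6). Bsn, which encodes Bassoon of the presynaptic active zone, had an internal exon peak of 5094 bp (chr9:108110109-108115202) at 12.8 (WT 12.7). Zcchc14 had 4848 bp at 12.8 (WT 16.1) and Arhgap32, a GTPase-activating protein of synapses, 4378 bp at 11 (WT 11.2). Gm20663 had 4847 bp at 28.6 with a log10 p of only -7.53 (WT 10.7).

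The strongest peak stood on Gm6741, a single-exon predicted gene (chr17:91236811-91237557, plus strand), with a fold enrichment of 1010 in Tyrobp-/- and 23.4 in WT mice. Wdr66, a ciliary protein, followed with 386 in its 5′ UTR (chr5:123252102-123256100, WT 146). Syne1, which links the nucleus to the cytoskeleton, had 313 in its 3′ UTR (chr10:5020917-5022087, WT 149). The peaks were ranked by their Tyrobp-/- value, so their being higher than in WT mice is partly fixed by the choice.

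Polr1d, a subunit of RNA polymerases, had 230 in a junction-spanning peak of 150 bp (chr5:147104208-147105393) that no WT peak overlapped. Krt9, a keratin of the skin, had 229 in an internal exon (chr11:100188358-100189198), below the 322 of WT mice. Tmem114 had 204 (WT 49.6). Dhx9, an RNA helicase, and Fam98b, of the tRNA ligase complex, had 198 each (WT 101 and 102). Nyap1, a neuronal adaptor of PI3 kinase, had 195 (WT 40.4). Kcnj11, the pore subunit of the ATP-sensitive potassium channel, had 194 in its 5′ UTR (chr7:46098437-46100764, WT 78.1). All 10 had a log10 FDR below -5, so the ranking was the same with that filter. The strongest first-exon peak stood on Gm30177, a predicted gene that overlaps Nrn1, at 68.6 (WT 55.7), and the strongest in last exons on Gm20388 at 108 (WT 14.3).

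Set against the mirror ranking, the excess over WT had a counterpart. Of the 100 strongest Tyrobp-/- peaks with a log10 FDR below -5, 92 overlapped a WT peak, 72 were lower there while the others were as high or higher, and the median log2 ratio of Tyrobp-/- over WT was 1.08. Of the 100 strongest WT peaks chosen the same way, 94 overlapped a Tyrobp-/- peak, 78 were lower in Tyrobp-/- mice, and the median log2 ratio was -1.16. The median peak of either choice was thus lower in the other genotype, though not each peak, as Krt9 shows.

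**Figure D3:**
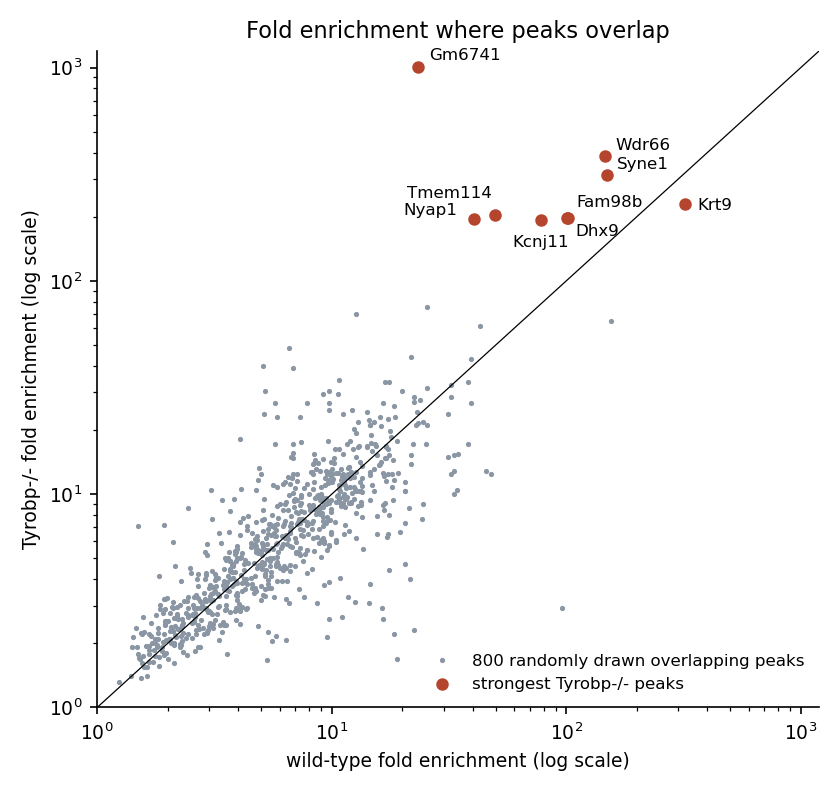
Fold enrichment in Tyrobp-/- mice (y axis, log scale) against that of the strongest overlapping wild-type peak (x axis, log scale), for 800 randomly drawn peaks with a log10 FDR below -5 (small points) and for the 9 of the 10 strongest Tyrobp-/- peaks that a wild-type peak overlapped (large points, named). The line marks equal values; Gm6741 at 1010 against 23.4 lies farthest above it and Krt9 at 229 against 322 lies below it.

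Ranking by the peak-calling p gave other genes than ranking by fold enrichment. Fam171a2 (fold enrichment 143, WT 129), Arxes1 (92.7, WT 12.3), Zfp777 (47.8, WT 25.7) and Tra2a (43.8, WT 21.8) had a log10 p that the list gives as minus infinity. Ndn, an imprinted gene of the Prader-Willi region that is silent on the maternal copy, had the lowest number, -20500, at a fold enrichment of 19.8 in its 3′ UTR (chr7:62349130-62350262, WT 25.0). Camk2n1, an inhibitor of CaMKII, had 20.8 (WT 16.2). Ppp1r9b, the spine protein spinophilin, had 9.49 (WT 11.6). Dynll1 had 7.81 (WT 6.79), Nap1l5, also imprinted, 7.47 (WT 12.3), and Camk2b, a CaMKII subunit, 7.56 (WT 8.46). A p of this kind depends on the number of reads as well as on the enrichment.

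Many weak peaks shared the same few fold enrichments. Of 27238 Tyrobp-/- peaks below 10, 5761 (21.2%) had a fold enrichment that was a whole multiple of 0.953 to 3 significant digits, as against a median of 197 peaks for the other step sizes tried. The value 6.67 stood on 1361 peaks, 7.62 on 1099, 8.58 on 846 and 9.53 on 655. In WT mice the step was 0.977, with 5325 peaks on it and 6.84 as the commonest value, on 1281 peaks. Of the 1361 peaks at 6.67, 911 shared a log10 p of -1.39, and 1044 had an FDR above 0.05.

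**Figure D4:**
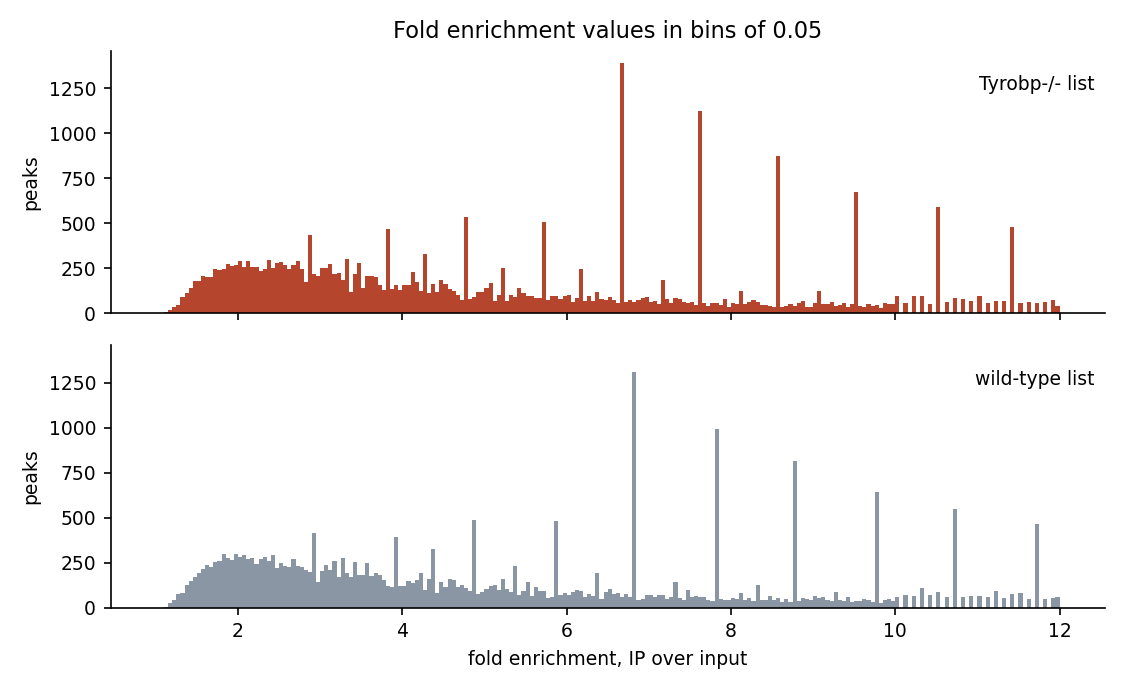
Number of peaks (y axes) by fold enrichment of IP over input in bins of 0.05 (x axis, cut at 12) in the Tyrobp-/- list (top) and the wild-type list (bottom). The tall single bins repeat at a step of 0.953 in the Tyrobp-/- list, with 1361 peaks at 6.67, and at a step of 0.977 in the wild-type list, with 1281 peaks at 6.84.

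The peaks on the step were weak ones by p, with a median log10 p of -1.88 against -20.3 for the others below 10, and a median exonic width of 210 bp against 271 bp. They made up 34.3% of peaks in transcripts with a sole exon, 29.2% in last exons, 19.7% in 5′ UTRs and 9.30% in 3′ UTRs. Without them the median fold enrichment of the whole list was 5.07 in place of 5.72, that of last exons 5.57 and that of 3′ UTRs 5.02. The repeats went on above 10, where 588 peaks stood at 10.5 and 480 at 11.4, of which 461 and 360 did not have a log10 FDR below -5. What makes the step was not tested. A fold enrichment of 6.67 or 7.62 in this list is therefore read here together with its FDR, and 3850 peaks (11.02%) of the list had an FDR above 0.05.

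Predicted and RIKEN gene models carried 5257 peaks (15.0%) on 3113 names. They held 55.8% of peaks in transcripts with a sole exon and 42.9% of first-exon peaks, but 5.42% of 3′ UTR peaks. The share in WT mice was 15.1%. Mitochondrial transcripts carried 9 peaks, the strongest on mt-Nd5 at 7.19 (WT 6.00) and mt-Nd2 at 6.03 (WT 5.90), both subunits of respiratory complex I.

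Peaks of both genotypes mostly coincided. Exon blocks of 27040 Tyrobp-/- peaks (77.4%, interval 77.0% to 77.8%) overlapped a WT peak by at least 1 bp, and 92.7% did so among peaks with a log10 FDR below -5. In the latter, fold enrichments in both genotypes had a rank correlation of 0.80 over 20505 peaks, a median log2 ratio of 0.03, and lay within 2-fold of each other in 88.0%. The 7895 peaks without a WT counterpart were narrow (median exonic width 150 bp) and weak (median log10 p -2.65), against 390 bp and -27.5 for the others. By name, 14183 of 16146 genes (87.8%) also carried a WT peak, and of the 1963 that did not, 1616 had a single Tyrobp-/- peak.

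No gene without a WT peak had more than 4 Tyrobp-/- peaks. By summed width these were led by Phkg1, a phosphorylase kinase subunit, Hacl1, Gm28040, Pex11g, a peroxisomal protein, and Batf3, a transcription factor. Of the 4 Phkg1 peaks, 2 had a log10 FDR below -5, and of the others' peaks none had. The largest excess over WT stood on Gm37013 (18 against 10), 2010111I01Rik (16 against 10), A530058N18Rik (8 against 2), Ccdc62 (7 against 1) and Gm26672 (18 against 12). Of the 7 Ccdc62 peaks, 1 had a log10 FDR below -5.

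The largest deficits stood on Gm16867 (0 against 11), Pcdha11 (20 against 29), Dst (15 against 22), Nexmif (2 against 9) and 4930578M01Rik (2 against 8). Nexmif, an X-linked gene of neurite growth, kept both of its peaks in the 3′ UTR at 15.8 and 7.81, and both overlapped a WT peak. A difference in the number of peaks of a gene can arise where a stretch is called as a single peak in a list and as several in the other, and it has no error between mice.

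In the gene lists that follow, a WT value is that of the strongest WT peak of the same name unless stated otherwise. Tyrobp, the targeted gene (chr7:30413782-30417582), had no peak in either list, so the deletion could not be checked from the peaks. Of 20 microglial markers and TYROBP partners, 15 carried a Tyrobp-/- peak, with 36 peaks in all against 38 in WT mice. Over all protein-coding genes that share was 58.2%. Trem2, Itgam and Ctss carried none in either genotype, and Apoe carried one in WT mice alone, at 1.41. For 17 of the 20 the number of peaks was equal in both genotypes, counting Tyrobp, Trem2, Itgam and Ctss, which had none in either. Over all names with peaks in both lists, 53.0% had equal numbers.

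Spi1, the transcription factor PU.1 that specifies microglia, had the strongest of these peaks, in its 3′ UTR at 23.3 (chr2:91115187-91115756), against 27.8 in WT mice. Cx3cr1, the fractalkine receptor, had 14 (WT 13) and named 9 peaks, of which 4 overlapped its RefSeq span and 3 had a log10 FDR below -5. C1qa, of complement, had 13 (WT 9.25). Csf1r, the receptor for the survival signal of microglia, named 5 peaks up to 7.65 (WT 7.83). The peak at 7.65 lay outside its RefSeq span. Only 1 of the 5 overlapped that span, at 2.68 (5.66 in the overlapping WT peak). P2ry12 had 6.99 (WT 5.67) and Tmem119 7.54 (WT 8.72). The TYROBP effector kinase Syk had 4.45 (WT 6.35), and Plcg2 4.61 with 15.1 in WT mice, a peak that had a log10 p of -4.89 in Tyrobp-/- mice.

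**Figure D5:**
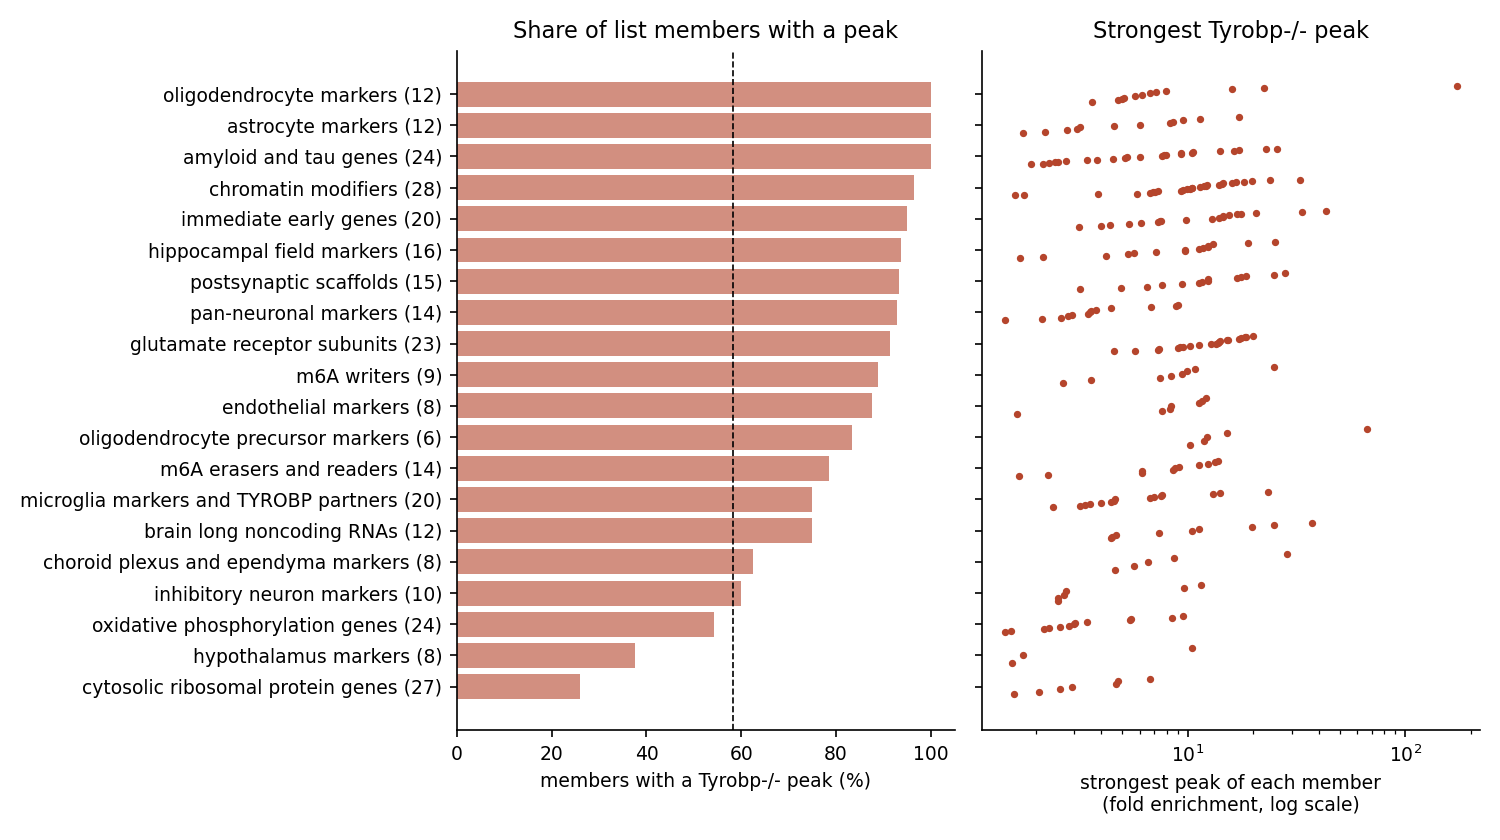
Share of members of each gene list (number in brackets) with at least 1 Tyrobp-/- peak (left, bars from 0, in percent) and fold enrichment of the strongest peak of each member that has one (right, log scale, 1 point a gene). The dashed line marks the 58.2% of all RefSeq protein-coding genes with a peak; the shares run from 25.9% of cytosolic ribosomal protein genes to 100% of oligodendrocyte, astrocyte, and amyloid and tau genes.

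Genes of the m6A machinery carried the mark themselves. Of 9 writer genes, 8 (88.9%) had a Tyrobp-/- peak, beside 58.2% of all protein-coding genes, with 22 peaks against 23 in WT mice. The exception was Mettl3, the catalytic subunit, which had none by name in either genotype, though 2 peaks named Tox4, up to 2.39, lay in its span. Mettl14, its partner, had 1 peak at 2.67 (WT 4.23) and Wtap 2 with the strongest at 7.42 (WT 6.70). Zc3h13 had 5 peaks up to 9.43 (WT 7.54), and Virma, a scaffold of the complex, 4 up to 8.33 (WT 9.80). Rbm15b, which guides the complex to RNA, reached 24.8 in a 5′ UTR peak outside its RefSeq span (32.2 in the overlapping WT peak). Its 3′ UTR peaks had 10.1 and 8.89, where the overlapping WT peak had 36.1.

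Of 14 erasers and readers, 11 (78.6%) had a Tyrobp-/- peak, beside 58.2% of all protein-coding genes, with 27 peaks against 18 in WT mice. Fto had 5 peaks (2 in WT mice), of which 3, at 13.3, 10.5 and 12.4, were annotated as the sole exon of a transcript and did not pass a log10 FDR of -5. The other 2, at 2.72 and 3.06, did. Alkbh5 had 3 peaks (1 in WT mice), at 12.4, 1.57 and 1.72, of which the first lay outside its RefSeq span. Ythdc1, the nuclear reader, had 6 (4 in WT mice), the strongest at 13.7 over 1797 bp (WT 11). Ythdf1, Ythdf2 and Ythdf3 had 6.16, 8.74 and 9.12, against 6.49, 8.12 and 11.2. Igf2bp1, Igf2bp2 and Hnrnpc had none in either list.

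All 24 amyloid and tau genes carried a Tyrobp-/- peak, with 49 peaks against 52 in WT mice, and 34 of the 49 (69.4%) were in 3′ UTRs. Over all protein-coding genes 58.2% carried a peak, and 49.3% of all peaks were in 3′ UTRs. App, the amyloid precursor, had 5 peaks, of which 2 were annotated to a 3′ UTR. The one at 9.43 over 810 bp (chr16:84952619-84953428) had the lowest FDR of the 5 (8.45 in the overlapping WT peak). The other, at 6.67 with a log10 FDR of -0.538, lay outside the RefSeq span of App. The strongest App peak, at 10.5, had a log10 FDR of -2.13. Bace2 had 5 peaks along its 3′ UTR, at 13, 3.25, 25.7, 6.19 and 12.2. Gsk3b, a tau kinase, had 23.0 in its 5′ UTR (WT 23.2) and 3.09 in its 3′ UTR. Sorl1, a sorting receptor for APP, had 1 peak at 17.2 (chr9:41964720-41965618, WT 13.5). Mapt, which encodes tau, had 6.06 in its 3′ UTR (chr11:104329998-104330835, WT 5.29) and lesser peaks at 2.52 and 2.32.

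Synaptic genes were widely marked. Of 23 glutamate receptor subunits, 21 had a Tyrobp-/- peak, 15 had 3 or more, and 14 reached a fold enrichment of 10 (13 with a log10 FDR below -5). Over all protein-coding genes, 58.2% had a peak, 19.1% had 3 or more and 21.7% reached 10 (17.6% with that FDR). Grik5 had 19.9 (WT 26.7), Grin2a 7 peaks up to 18.5 (WT 15.4), Grik3 18.3 (WT 15.5), Grin1 17.6 (WT 6.84) and Grm5 15.3 (WT 13). The 6.84 of Grin1 was the commonest repeated value of the WT list, on 1281 peaks. By name, Grik4 had no peak in either list and Grm4 none in the Tyrobp-/- list, but a Tyrobp-/- peak of 22.8 named Gm24420 lay in the Grik4 span and one of 7.64 named Gm49789 in that of Grm4.

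Of 15 postsynaptic scaffolds, 14 had a peak and 9 reached 10 (8 with a log10 FDR below -5). Over all protein-coding genes, 58.2% had a peak and 21.7% reached 10 (17.6% with that FDR). Shank1 had 25.0 over 2936 bp of 3′ UTR (WT 21.8). Dlg4, the scaffold PSD-95, had 18.6 (WT 12.8) with 4 weaker peaks, and Homer1 had 17.6 in its 5′ UTR (WT 10.6). Pan-neuronal markers had weaker peaks: 13 of 14 carried one, none reached 10, and Nefm at 9.05 and Elavl3 at 8.82 were the strongest. Their peaks numbered 26 against 32 in WT mice.

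Of 20 immediate early genes, which neurons switch on with activity, 19 had a peak, with 44 peaks against 51 in WT mice. Over all protein-coding genes 58.2% had a peak. Jun had 43.2 in its 3′ UTR (chr4:95049630-95050941, WT 34.9). Bdnf had 8 peaks (7 in WT mice), all in 5′ UTRs by annotation, from 4.69 to 33.4, and the widest joined 2 blocks over chr2:109709492-109724258 at 15.1. Ier2 had 20.6 (WT 16.1) and Fosb 14.5 (WT 35.5). Arc had 4.41 (WT 5.57) and Fos 3.97 (WT 4.84). Jund had none by name, against a peak of 2.48 in WT mice, while 2 Tyrobp-/- peaks in its span, up to 13, were named Gm11175.

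All 12 oligodendrocyte markers had a peak, with 27 in each genotype. Over all protein-coding genes 58.2% had one. Mag, the myelin-associated glycoprotein, had 1 peak of 181 bp at 173 (chr7:30908797-30908977, WT 67.9), the strongest of all list members. Cnp, a myelin enzyme, had 22.3 (WT 14.6) and Mbp 5 peaks up to 15.9 (WT 7.98). Of 6 precursor markers 5 had a peak, all 5 of them reached 10, and Gpr17 had none by name, with a peak of 13.3 named Lims2 in its span. Over all protein-coding genes 21.7% reached 10. With a log10 FDR below -5 as well, 4 of the 6 precursor markers did, beside 17.6% of all protein-coding genes. Olig2, the lineage factor of oligodendrocytes, had 66.7 in its 3′ UTR (chr16:91227160-91227963, WT 38.1) and 6.67 in its 5′ UTR. All 12 astrocyte markers had a peak, beside the same 58.2%, with 30 peaks against 22 in WT mice. Sox9 had 17.2 (WT 13.9) and 4 peaks against 1, and of the 4, 2 had a log10 FDR below -5. Aldh1l1 had 5 against 1, and of the 5, 2 had such an FDR and 1 overlapped its RefSeq span. Gfap and Aldoc, both abundant in astrocytes, had 1 weak peak each, at 2.78 and 2.21.

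Of 10 inhibitory neuron markers, 6 (60%) carried a peak, near the 58.2% of all protein-coding genes. None reached 10 apart from Lhx6 at 11.5 (WT 10.7), where 21.7% of all protein-coding genes did. Gad1, Pvalb, Vip and Npy had no peak. Of those 4, Pvalb, Vip and Npy had WT peaks, at 1.99, 3.16 and 2.13. Among vascular markers 7 of 8 had a peak, led by Cldn5 at 12.1 (WT 13.3) and Slc2a1 at 11.6 (WT 10.3). Foxj1, the ciliogenesis factor of ependyma, had 28.7 in its 5′ UTR (WT 29.3).

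Of 28 chromatin modifiers, 27 had a peak, 21 had 3 or more and 16 reached 10 (15 with a log10 FDR below -5). Over all protein-coding genes the shares were 58.2%, 19.1% and 21.7% (17.6%). The list held 139 peaks against 129 in WT mice, and 37.4% of its peaks were in 3′ UTRs, where 49.3% of all peaks were. Kmt2a, a histone methyltransferase, had 13 peaks (11 in WT mice), all 13 with a log10 FDR below -5. Kmt2d had 12 in each genotype, and Kmt2c 10 against 8. Arid1b, a subunit of the BAF complex, had 32.7 in its 3′ UTR (WT 32.8) and Chd7 23.9 (WT 21.0). Ezh2 had none, against a peak of 4.39 in WT mice, and Ezh1 had 2, up to 1.77, with none in WT mice.

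Of 12 long noncoding RNAs, 9 had a peak by name, where 9.96% of 12731 RefSeq long noncoding RNA genes had one. Mirg had 37.4 in its last exon (chr12:109749340-109749460, WT 72.3), and Meg3, from the same imprinted locus, had 6 peaks up to 19.8, where an overlapping WT peak of another name had 17.8. A pair of the Tyrobp-/- peaks of Meg3, at 19.8 and 19.6, overlapped each other. Malat1 had 2 peaks up to 4.67 (WT 3.83) and Neat1 4 up to 4.50 (WT 3.54). A further 3 peaks in each of the spans of Malat1 and Neat1 carried other names.

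Of 24 oxidative phosphorylation genes 13 (54.2%) had a peak, near the 58.2% of all protein-coding genes. None reached 10, beside 21.7% of all protein-coding genes, and Ndufa9 at 9.46 (WT 5.23) was the strongest. Of 27 cytosolic ribosomal protein genes 7 (25.9%) had a peak. None had 3 or more, beside 19.1% of all protein-coding genes. Rpl11 at 6.67, a peak with a log10 p of -1.39, and Rps6 at 4.76 were the strongest. The ribosomal share was below the 58.2% of all protein-coding genes, in a list chosen with earlier results known.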

How the data were processed

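MeRIP-seq of hippocampus was done on 3 pooled samples a genotype, each split into an IP and an input library. The authors trimmed reads with fastp, mapped them with HISAT2 to GRCm38 with Ensembl v96 and called peaks with exomePeak on the 3 IP and 3 input libraries of a genotype together, and ChIPseeker named each peak. The authors deposited, for each library, the count of raw and valid reads, and as percent the bases at Q20 and Q30 and the GC content. For each peak the authors deposited a fold enrichment (the ratio between IP and input), the p-value, and the log10 of p and of FDR, a score that falls below -100. Whether counting used strand is not given in the sources used here. A table of the authors' own comparison of genotypes (fold changes and p-values) was not used.

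Peaks were classed by the annotation text, and exonic width is the sum of the exon blocks. Peaks of both lists were matched where exon blocks shared at least 1 bp, taking the strongest WT peak. Gene spans and sequences came from RefSeq (GRCm38.p6), where 14638 of 16146 names matched. Fisher's exact test and, over genes, the exact McNemar test were run on 4 shares between the lists. They take peaks or gene names of 1 pooled list a genotype as independent and cannot test a difference between mice, so their p-values are not given. GC content was compared by an exact permutation test.

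Genes named are the 10 with most peaks, the 10 strongest, the 10 of lowest p, the 5 widest and the 5 with most blocks, the extremes against WT, the strongest of each annotation class, Tyrobp, and, of each list, up to 4 members with most peaks, up to 4 with the strongest peak and those with none where few or defining; other members were named for their known role after their values were seen. Some members are not reported here. Members, lists and tests were chosen with earlier results of these data known, and counts that ask for both a fold enrichment of 10 and a log10 FDR below -5 were added after the values were seen. Exon peaks whose annotated gene differed from the named gene numbered 1824 of 11648. Depth was 61189368 to 73554506 valid reads a library, and the depth behind a peak is unknown. The tests were run on simulated data first, in scipy 1.17.1 with Python 3.11.15, with tables in pandas 2.3.3 and numpy 2.4.6 and plots in matplotlib 3.10.9.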

Additional observations from a re-analysis of the deposited data

How the results depend on the processing

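The difference of the Tyrobp-/- from the WT list in names with 3 or more peaks was 1.30 percentage points, fell to 0.42 with a log10 FDR below -5 in both lists, and was 0.51 to 2.32 under 7 other settings, among them keeping only peaks that overlap the other list, a setting added after seeing the data. The difference in peaks joining blocks was -3.15 to -1.77 percentage points under the 7 settings tried. For peaks at a fold enrichment of 10 or more it was 0.20, and a threshold of 5 gave 0.98. The share in predicted and RIKEN models changed sign with only the strongest peak of each gene, to 0.16 percentage points from -0.06.

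With a log10 FDR below -5, the median fold enrichment was 5.63, the median exonic width 450 bp, peaks per gene 1.81, the 3′ UTR share 60.3% and the share of genes with a single peak 52.3%. Without predicted and RIKEN models, they were 5.31, 301 bp, 2.28, 54.9% and 39.3%. With overlapping peaks merged, peaks per gene were 2.03 and genes with a single peak 46.8%. Added after seeing the data, leaving out peaks on the fold step gave 5.07, 331 bp, 2.01, 53.6% and 47.3%, and RefSeq names gave 2.23 peaks per gene and 40.3% with a single peak. The genomic span had a median of 389 bp. With a WT peak that overlaps, 86.6% of names were shared in place of 87.8%. The cause was not tested.

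With the replicate block, GC content of Tyrobp-/- IP over input libraries stayed at 1.10 percentage points (exact sign-flip test, p = 0.25, the smallest it allows with 3 pairs). Deviations from the group means of same-numbered libraries were checked on GC content alone (r = -0.04 over 3 pairs), and peaks hold no value by replicate. With each library left out, the difference was 0.90 to 1.34 percentage points. Peaks pooled over replicates give no error between mice, and the reads behind a single peak are unknown.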

Other observations

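Of 11648 exon peaks whose annotation names a gene, 1824 (15.7%) carried another gene's name in the list, and of the 32396 peaks whose name RefSeq holds, 1709 (5.28%) lay outside that gene's RefSeq span. Peaks that overlapped another Tyrobp-/- peak numbered 4480 (12.8%), and 33 repeated the span of an earlier one. For 14 of the 21 hairpins the peak was named for the miRNA gene itself, and such peaks reached 2040 exonic bp at Mir6363, where a second peak of 114 bp was as long as the hairpin.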
